A study of Rattus norvegicus with 10 samples.

Results

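Proliferation and DNA replication genes encode the machinery that copies the genome and divides the cell. This group of 46 genes was fixed by name, 17 with a role in DNA replication in S phase and 29 with a role in G2 and mitosis. A member was measured where the platform annotation gives a probe set its symbol alone, and the brightest such probe set stood for the gene. Of the 46 members 32 had a probe set of their own (14 replication, 18 mitosis), 2 (Rrm2 and Hmgb2) shared theirs with related genes and were given no value, and 12 were named by no probe set used here (Ccna2, Cdk2, Bub1, Ttk, Cenpa, Kif11, Kif23, Prc1, Nusap1, Tpx2, Smc2 and Gmnn). The mean signal of 28 members (12 replication, 16 mitosis) passed the filter on dim probe sets, out of 9520 probe sets tested among 15866. Ccne2, Aurka, Bub1b and Tyms were too dim and were not tested.

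Whole mammary gland was taken from female SD rats at postnatal day 21 and measured on 5 arrays for each of 2 diets. Both diets were AIN-93G, a purified rodent diet, with casein as protein in the control group and soy protein isolate in the other. Exposure began at gestation day 4 and lasted until weaning, and the comparison asks how soy protein acts on the early mammary gland. No genotype or drug differed between the groups. The labelling protocol starts from pooled RNA with parallel cRNA preparations, so arrays may not all be separate animals and p-values measure the spread between these arrays only. Arrays are called by diet and by the number in their title, and series of values follow the order casein 10, 18, 20, 6 and 7, then soy 147, 149, 155, 157 and 159. Values are the MAS5 signal, the summary of a probe set, on the log2 scale, on which equal steps are equal folds.

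Before a cell divides, the MCM2-7 helicase is loaded on origins of replication and opens the helix, the clamp PCNA holds the polymerases on the template, and ribonucleotide reductase, thymidylate synthase and thymidine kinase supply deoxynucleotides. Mitosis is then driven by CDK1 with cyclins A and B, by the Aurora and Polo kinases, and by the spindle checkpoint, which holds back the anaphase-promoting complex. The transcripts of S phase are classic targets of E2F factors, and those of mitosis are classic targets of the DREAM and B-MYB complexes at CHR elements, often beside CCAAT boxes bound by NF-Y. In the prepubertal gland, cells of the growing ducts and terminal end buds divide, and the fat pad holds a lymph node whose lymphocytes also divide, so a whole gland mixes both sources.

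The promoter sequences of 4 members are shown because S phase and mitosis members held known cell cycle elements in unlike shares. RefSeq windows (build GRCr8, 250 bases before to 50 after a start site) were found for 38 of the 46 members, with 2 windows each for Dut and Cdkn3. Matches on either strand are in capitals, and adjacent or overlapping matches run together. They are the CHR spelled TTTGAA or TTCGAA, the box CCAAT, and the E2F site spelled TTTCCCGC, TTTGGCGC, TTTCGCGC or TTTGCCGC. Each line gives the 250 bases before the start, 5′ to 3′ along the gene. They belong to Mki67, the proliferation marker Ki-67 (chr1:199952594-199952843, minus strand), Top2a, topoisomerase II alpha (chr10:84473094-84473343, minus strand), Cdk1 (chr20:19265043-19265292, plus strand) and the helicase subunit Mcm2 (chr4:122918095-122918344, minus strand).
Mki67: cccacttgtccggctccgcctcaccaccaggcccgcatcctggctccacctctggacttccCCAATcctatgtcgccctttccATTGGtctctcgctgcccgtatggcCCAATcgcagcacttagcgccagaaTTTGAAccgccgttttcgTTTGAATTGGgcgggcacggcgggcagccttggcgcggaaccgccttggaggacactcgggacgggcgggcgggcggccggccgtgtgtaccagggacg
Top2a: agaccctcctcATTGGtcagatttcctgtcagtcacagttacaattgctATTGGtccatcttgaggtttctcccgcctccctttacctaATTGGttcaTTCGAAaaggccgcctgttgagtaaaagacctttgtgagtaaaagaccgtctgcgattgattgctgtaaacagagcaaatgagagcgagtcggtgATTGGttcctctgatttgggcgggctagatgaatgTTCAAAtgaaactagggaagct
Cdk1: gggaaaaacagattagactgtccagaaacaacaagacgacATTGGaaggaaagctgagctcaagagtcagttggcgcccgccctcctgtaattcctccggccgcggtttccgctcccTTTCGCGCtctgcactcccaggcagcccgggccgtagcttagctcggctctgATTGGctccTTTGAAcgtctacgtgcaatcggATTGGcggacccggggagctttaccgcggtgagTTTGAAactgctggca
Mcm2: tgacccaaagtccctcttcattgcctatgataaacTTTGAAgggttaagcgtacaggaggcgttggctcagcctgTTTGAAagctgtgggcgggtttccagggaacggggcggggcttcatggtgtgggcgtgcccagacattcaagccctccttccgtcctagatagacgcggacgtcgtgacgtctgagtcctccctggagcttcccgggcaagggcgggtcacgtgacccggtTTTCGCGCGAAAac

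The Mki67 window held 2 CHR and 4 CCAAT matches and no E2F match, with 1 of each overlapping, and that of Top2a also held 2 and 4. In Cdk1 a CHR match began 16 bases and another 72 bases before the start, with 3 CCAAT matches and 1 E2F match. In Mcm2, 2 overlapping E2F matches began 14 and 10 bases before the start, with 2 CHR and no CCAAT matches further up. Counted by gene over the whole windows, an E2F match was present in 7 of 14 replication members (Mcm2, Mcm3, Mcm5, Mcm6, Mcm7, Tyms and Gmnn) and in 2 of 24 mitosis members (Cdk1 and Stmn1), against 2.37% of all 27457 genes in the table. A CHR match was present in 4 of 14 replication and 18 of 24 mitosis members, against 5754 of the 27457 genes. A CCAAT match was present in 8 of 14 and 21 of 24, against 39.6%. These are matches of letters in a window and were not tested as binding sites.

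The deposited signals had a 2% trimmed mean of 500.1 on every array. In casein 6 and soy 149 the mean of the lymphocyte markers was 6.72 and 6.50, against 9.42 to 10.20 in the other 8 arrays. Of 23 lymphocyte markers 15 had a probe set and 13 were tested, and of 13 epithelial markers 12 and 7. Only S1pr2 of 5 germinal centre markers had a probe set. The epithelial mean was lowest in casein 6 (6.89), soy 159 (6.99) and soy 149 (7.80), and 8.46 to 10.51 elsewhere. The mean of 6 skeletal muscle genes reached 13.71 in casein 6 and 12.50, 13.49 and 14.00 in soy arrays 147, 149 and 157, against 6.53 to 8.46 in the other 6 arrays. No marker stood at 0 in these values, and whether a dim signal is above background was not known here. In whole glands, fewer cells of a type and less RNA per cell cannot be told apart. The actin 3′ to 5′ ratio, a sign of RNA quality, was 1.41 in soy 149 and 1.33 in casein 6, within the 1.22 to 1.57 of the others.

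No proliferation or replication member passed the test between the diets. In limma, 0 of 28 had a Benjamini-Hochberg adjusted p under 0.05, as did 0 (0%) of the 9520 probe sets tested, and the smallest adjusted p of a member was 0.98. With an unadjusted p under 0.05 stood 1 member, Mcm2, lower in soy, where 2.24% of all probe sets were. That count was 0 without casein 18 and 2 without casein 6 or without soy 147. The point estimates leaned one way: 22 members had a negative and 6 a positive soy minus casein difference, with a median of -0.15 on the log2 scale, against 52.7% negative and a median of -0.01 over all probe sets. The median was -0.12 for the replication members (9 of 12 negative) and -0.16 for the mitosis members (13 of 16 negative). This lean depended on single arrays, most of all on soy 149, since without that array 18 of 28 were negative and the median was -0.02. Without casein 7 or casein 18, 2 arrays with high values, it was -0.05 and -0.08. Leaving out casein 6 moved it furthest from 0, to -0.22, with 24 of 28 negative. Without both casein 6 and soy 149 it was -0.09, with 21 of 28 negative. Muscle signal was high in 3 soy arrays and 1 casein array, and without these 4 arrays 19 of 28 were negative, with a median of -0.09. With the lymphocyte marker Cd37 as covariate 20 were negative (median -0.06), with the epithelial marker Krt8 17 (median -0.04) and with both 15 (median -0.02), while with the means of the lymphocyte and epithelial lists 23 were negative (median -0.12). The arrays of the diets overlapped for each of the 28 members, and they did not for 0.798% of all probe sets. The 95% interval of the difference held 0 for 27 of them, and it included a 1.5-fold lower level in soy for 13 and a 1.5-fold higher one for 2 (Mcm3 and Birc5).

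**Figure D1:**
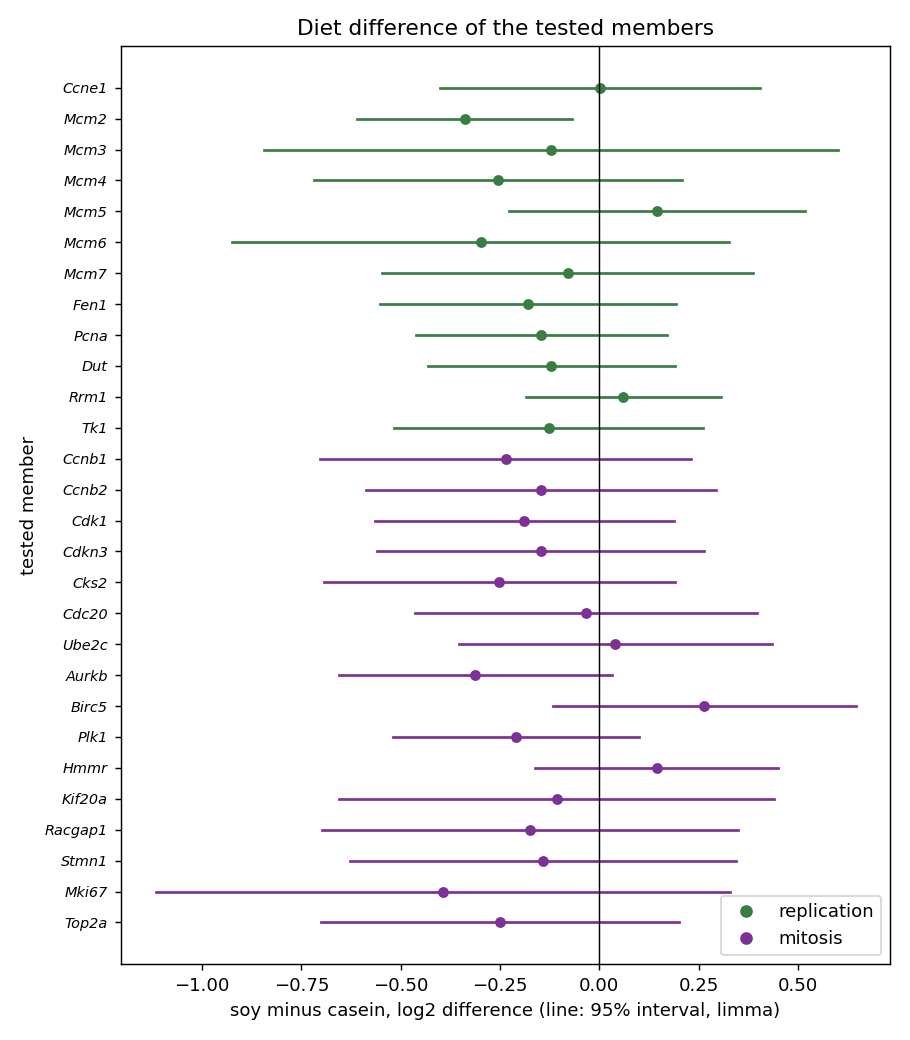
Soy minus casein difference on the log2 scale for the 28 tested members, replication members in green and mitosis members in purple, with the estimate as a point and its 95% interval from limma as a line. The interval of Mcm2 (-0.61 to -0.07) lies below 0, and those of the other 27 members hold 0.

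Among the helicase subunits, Mcm2, which also marks licensed origins, had log2 signals of 9.23, 9.50, 9.29, 8.88 and 9.33 on casein and of 9.06, 8.70, 8.98, 8.84 and 8.94 on soy isolate. The casein arrays other than casein 6 lay above each soy array, and casein 6 lay among the soy arrays. The means were 9.25 ± 0.23 for casein and 8.91 ± 0.14 for soy (SD, n = 5 each), and the difference was -0.34 ± 0.12 (SE) (limma, unadjusted p = 0.018, adjusted p = 0.98). Mcm3 had log2 signals of 9.27, 9.20, 9.20, 8.09 and 9.49 on casein and of 9.20, 7.74, 9.31, 9.31 and 9.08 on soy isolate. Only casein 6 and soy 149 were low, and the remaining 8 arrays lay between 9.08 and 9.49. Its difference was -0.12 ± 0.33 (SE), and without soy 149 it was 0.18. Mcm6 had log2 signals of 9.06, 9.55, 9.18, 8.65 and 9.49 on casein and of 9.04, 7.75, 9.36, 9.27 and 9.02 on soy isolate. Soy 149 again stood far below the rest, and the difference of -0.30 ± 0.29 (SE) was -0.02 without it. Mcm7 had log2 signals of 9.22, 9.69, 9.43, 8.82 and 9.69 on casein and of 9.17, 9.05, 9.44, 9.91 and 8.89 on soy isolate. Here soy 157 was highest and casein 6 lowest, and the difference was -0.08 ± 0.21 (SE). Mcm4 had a difference of -0.25 ± 0.21 (SE) and Mcm5 of 0.14 ± 0.17 (SE), so 5 of the 6 subunits had negative estimates.

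Of the other replication members, the sliding clamp Pcna had log2 signals of 11.28, 11.25, 11.19, 10.93 and 11.34 on casein and of 11.15, 10.52, 11.27, 11.08 and 11.25 on soy isolate. All arrays but soy 149 and casein 6 lay within 11.08 to 11.34, and the difference of -0.15 ± 0.14 (SE) was -0.01 without soy 149. The flap nuclease Fen1, which trims Okazaki fragments, had a difference of -0.18 ± 0.17 (SE). In nucleotide supply the estimates were -0.13 ± 0.18 (SE) for thymidine kinase Tk1, -0.12 ± 0.14 (SE) for the dUTPase Dut and 0.06 ± 0.11 (SE) for Rrm1, the large subunit of ribonucleotide reductase. Rrm1 varied least of the tested members, with a range of 0.52 over the arrays. The dim probe set of thymidylate synthase, Tyms, had log2 signals of 6.93, 6.60, 6.90, 6.76 and 6.85 on casein and of 6.38, 6.22, 6.82, 6.68 and 6.52 on soy isolate. Its diets overlapped, and it was not tested. For cyclin E, which starts S phase with CDK2, Ccne1 had a difference of 0.00 ± 0.18 (SE), while the dim Ccne2 lay between 5.94 in soy 149 and 7.22 in casein 20.

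Among chromosome proteins of dividing cells, Mki67 had log2 signals of 9.00, 9.88, 9.41, 8.69 and 9.50 on casein and of 8.88, 7.66, 9.55, 9.24 and 9.19 on soy isolate. Soy 149 was lowest by a wide margin, and the other 4 soy arrays lay within the casein range. The means were 9.30 ± 0.46 for casein and 8.90 ± 0.73 for soy (SD, n = 5 each). The difference of -0.39 ± 0.33 (SE), the most negative of the 28, had an interval of -1.12 to 0.33 and was -0.08 without soy 149. Top2a, which untangles replicated chromosomes, had log2 signals of 8.91, 9.80, 9.18, 8.95 and 9.81 on casein and of 9.09, 8.63, 9.33, 9.19 and 9.17 on soy isolate. Casein 18 and casein 7 stood above the other 8 arrays. Its difference was -0.25 ± 0.21 (SE).

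Of the mitotic cyclins and their partners, cyclin B1 (Ccnb1) had log2 signals of 8.77, 9.00, 8.59, 8.57 and 9.25 on casein and of 8.92, 7.80, 8.74, 8.74 and 8.80 on soy isolate. Soy 149 stood apart, and the other 4 soy arrays lay within the casein range. The difference of -0.24 ± 0.21 (SE) was -0.04 without soy 149. Cdk1, the kinase of mitotic entry, had log2 signals of 8.97, 9.47, 8.97, 8.88 and 9.77 on casein and of 9.04, 8.87, 9.02, 9.27 and 8.91 on soy isolate. Casein 7 and casein 18 were highest here, and soy 149 was close to 4 other arrays. Its difference was -0.19 ± 0.17 (SE), and -0.05 without casein 7. Estimates were also negative for cyclin B2 (Ccnb2, -0.15 ± 0.20 (SE)), the CDK subunit Cks2 (-0.25 ± 0.20 (SE)) and the CDK phosphatase Cdkn3 (-0.15 ± 0.19 (SE)). No tested member of this role had a positive estimate.

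Among mitotic kinases, Aurora B (Aurkb), the kinase of the chromosomal passenger complex, had log2 signals of 7.83, 8.10, 7.76, 7.59 and 8.09 on casein and of 7.98, 7.35, 7.44, 7.51 and 7.55 on soy isolate. The soy arrays other than soy 147 lay below each casein array. The means were 7.88 ± 0.22 for casein and 7.56 ± 0.24 for soy (SD, n = 5 each) and the difference was -0.31 ± 0.16 (SE) (limma, unadjusted p = 0.071, adjusted p = 0.98). Its partner survivin (Birc5) had log2 signals of 8.08, 8.12, 7.74, 7.45 and 8.32 on casein and of 8.08, 8.04, 8.22, 8.55 and 8.13 on soy isolate. Casein 6 was lowest and soy 157 highest, and the difference of 0.26 ± 0.17 (SE) was the most positive of the 28. Polo-like kinase Plk1 had log2 signals of 8.05, 8.15, 8.22, 8.36 and 8.27 on casein and of 7.70, 8.16, 7.70, 8.25 and 8.18 on soy isolate. Casein 6 was highest and soy 147 and soy 155 lowest, and the difference was -0.21 ± 0.14 (SE). At the checkpoint and anaphase, the APC activator Cdc20 had an estimate of -0.03 ± 0.20 (SE) and its ubiquitin-conjugating enzyme Ube2c of 0.04 ± 0.18 (SE). The dim Aurka lay between 6.37 and 7.58 and the dim checkpoint kinase Bub1b between 5.35 and 7.04.

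In the spindle and cytokinesis group, the cytokinesis kinesin Kif20a had log2 signals of 7.49, 8.27, 8.09, 7.53 and 8.41 on casein and of 7.98, 7.08, 7.79, 8.22 and 8.18 on soy isolate. Soy 149 was lowest, casein 10 and casein 6 were next, and the diets overlapped. The difference was -0.11 ± 0.25 (SE), and 0.08 without soy 149. Racgap1, of the centralspindlin complex, had log2 signals of 8.80, 9.47, 8.80, 8.32 and 9.44 on casein and of 8.83, 8.16, 9.09, 8.99 and 8.89 on soy isolate. Casein 18 and casein 7 were highest, soy 149 and casein 6 lowest, and the difference was -0.17 ± 0.24 (SE). The microtubule destabiliser stathmin (Stmn1) had log2 signals of 10.72, 11.36, 10.80, 10.25 and 11.45 on casein and of 10.87, 10.38, 11.07, 10.97 and 10.59 on soy isolate. The same 2 casein arrays were highest and the same 2 arrays lowest. Its difference was -0.14 ± 0.22 (SE), and that of the hyaluronan receptor Hmmr, which binds the spindle, was 0.14 ± 0.14 (SE).

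**Figure D2:**
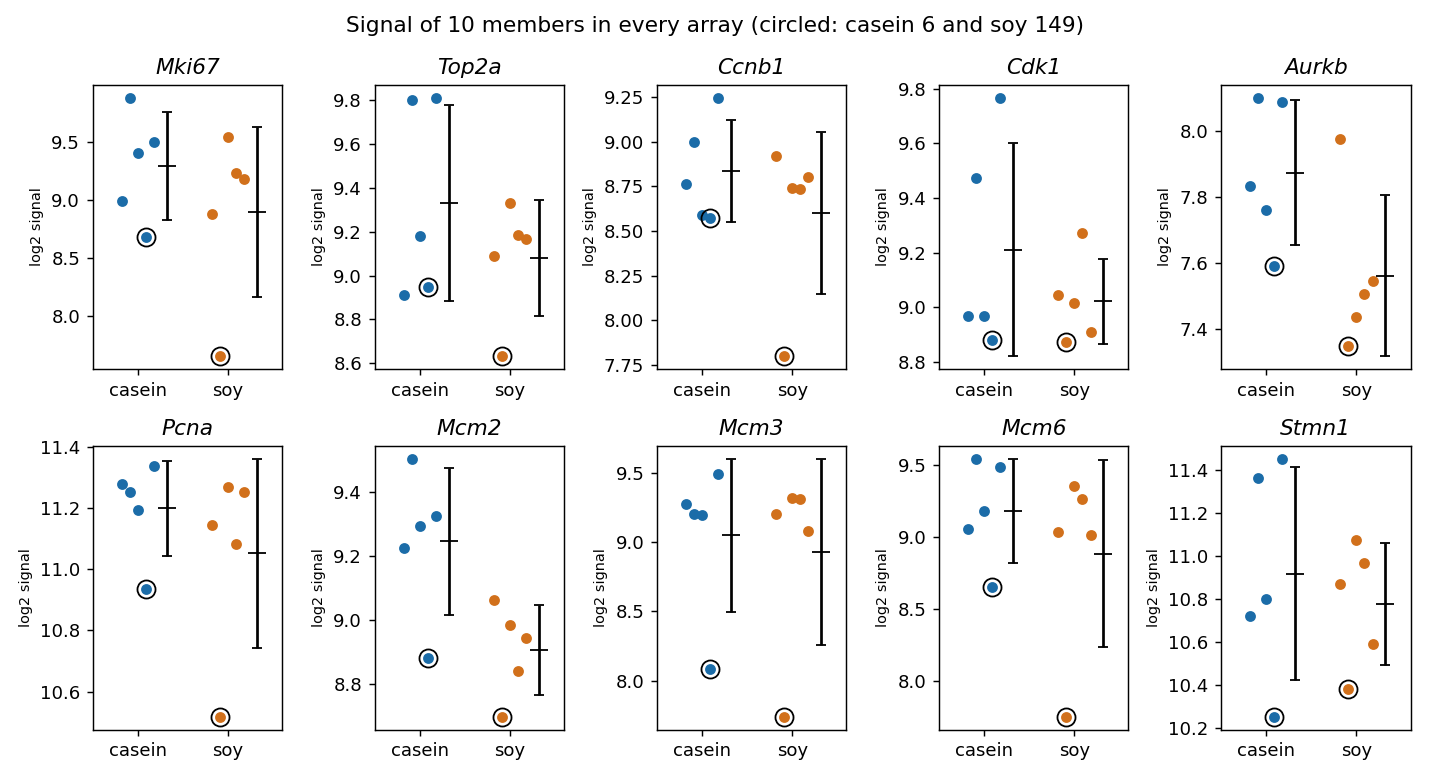
Log2 signal of 10 members in each array, casein in blue and soy in orange, with 1 point per array, the mean and SD of the 5 arrays beside them, and casein 6 and soy 149 circled. Axes differ between panels and do not start at 0. Soy 149 is the lowest array in 9 panels, and in that of Stmn1 casein 6 is lowest, at 10.25.

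Most members were low in casein 6 and soy 149 and high in casein 7 and casein 18. In casein 10, casein 20, soy 147 and soy 159 they were split, with 17, 17, 15 and 13 of 28 below their own mean over the arrays. Soy 149 was the lowest of the 10 arrays for 21 of the 28 members, against 17.3% of all probe sets. Casein 6 was lowest for 6 of the 28, against 19.2%. So 1 of the 2 was lowest for 27, while this held for 36.5% of all probe sets. The exception was Plk1. Casein 7 was highest for 12 and casein 18 for 9, together 21 of 28, against 19.5% of all probe sets. Measured from the mean of the 8 other arrays, the members stood at a median of -0.66 in soy 149, from -1.67 for Mki67 to 0.10 for Plk1. In casein 6 the median was -0.33, from -1.17 for Mcm3 to 0.29 for Plk1. Mki67, Mcm3, Mcm6 and Ccnb1 were at least 1 log2 unit below those arrays in soy 149. Each diet thus held 1 array with low values and both arrays with the highest were casein ones.

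For replication and for mitosis members alike, casein 7 and casein 18 stood highest and casein 6 and soy 149 lowest. Each member was set against its own mean over the 10 arrays and the median taken per array. For replication members this was 0.01, 0.29, 0.03, -0.24 and 0.28 on casein, and -0.01, -0.54, 0.22, 0.17 and -0.05 on soy isolate. For mitosis members it was -0.11, 0.37, -0.03, -0.26 and 0.40, and -0.02, -0.61, 0.14, 0.07 and 0.07, in the same order. Over all probe sets tested the median deviation per array lay between -0.07 and 0.03. The 2 kinds differed in sign in casein 10, casein 20 and soy 159. Their difference within an array was not tested.

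**Figure D3:**
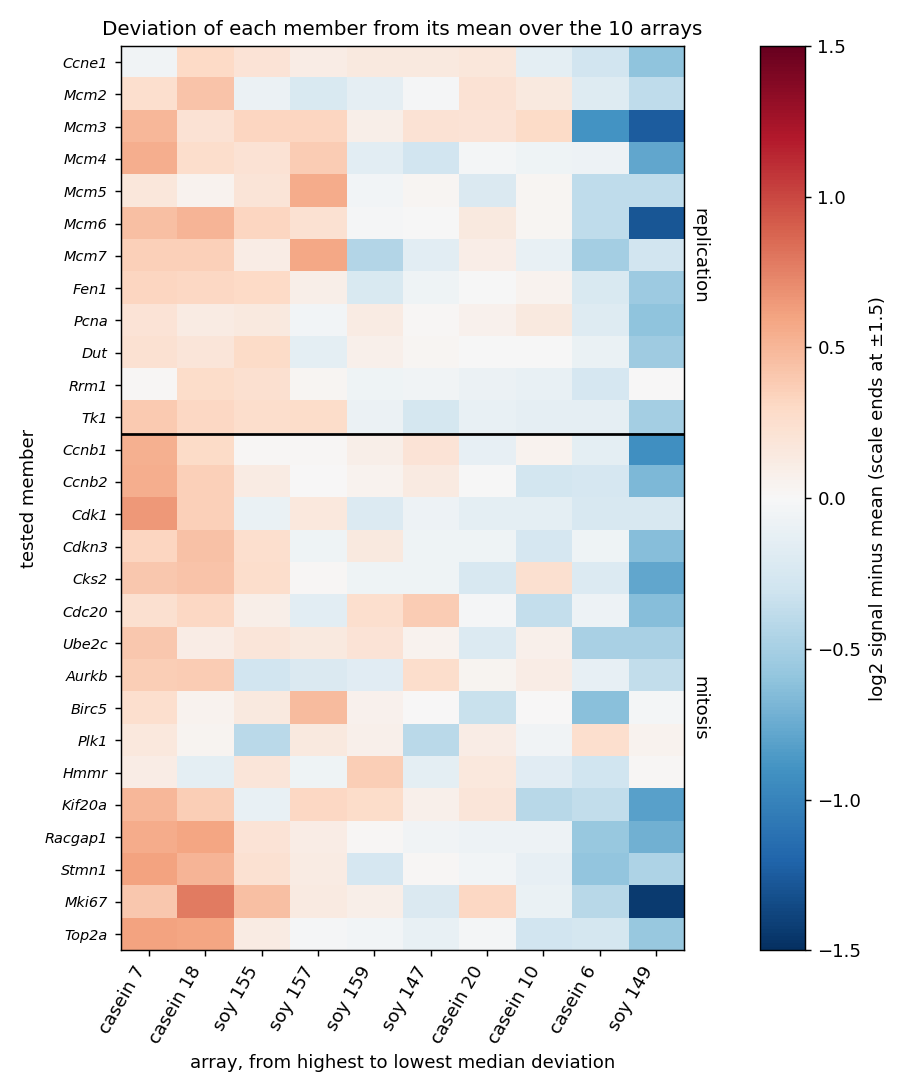
Log2 signal of the 28 tested members minus each member's mean over the 10 arrays, with replication members above the line, mitosis members below it and arrays ordered by the median over the members. Red is above and blue below the mean. Casein 7 and casein 18 are red for nearly all members, and casein 6 and soy 149 are blue for 27 and 25 of 28.

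The members were then set against Cd37, a tetraspanin of B cells and other leukocytes. Its log2 signal was 9.93, 9.46, 10.08, 8.43 and 9.67 in casein 10, 18, 20, 6 and 7. The soy arrays 147, 149, 155, 157 and 159 had 9.01, 6.98, 10.69, 9.36 and 9.54. Over the 8 arrays without casein 6 and soy 149, no member's slope on it passed the test. With diet as covariate, 0 of 28 slopes had an adjusted p under 0.05 in limma, as did 0 (0%) of 9519 probe sets, and 0 had an unadjusted p under 0.05, where 6.57% of all probe sets did. Of the slopes 12 were positive and 16 negative (20 positive after median centring of the arrays), while 53.5% were positive over all probe sets. The median of the members was -0.02 log2 units per unit of Cd37, against 0.01 over all probe sets. Mki67 had a slope of 0.18 ± 0.20 (SE), Ccnb1 of -0.17 ± 0.15 (SE), Kif20a of -0.26 ± 0.21 (SE) and Aurkb of -0.29 ± 0.16 (SE). Without soy 155, the array with the most Cd37, 2 slopes were positive and the median was -0.35. In the fit over the 8 arrays, 0 of the other tested lymphocyte markers passed in limma either. Of these markers 4 had an unadjusted p under 0.05, with 11 slopes positive and 1 negative. Slopes on Cd37 over the 8 arrays were negative for all 7 tested epithelial markers (median -0.24) and all 6 muscle genes (median -2.43), against 46.5% of all probe sets. Cd37 thus also varied with these contents there, and their parts were not tested. The count of 0 members thus does not decide whether they follow lymphocyte signal.

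With casein 6 and soy 149 included, 27 of 28 slopes on Cd37 were positive, against 56.5% of all probe sets. Of the 28, 4 had an adjusted p under 0.05 in limma, beside 5.01% of all probe sets. These were Mki67 with a slope of 0.50 ± 0.10 (SE, adjusted p = 0.016), Mcm3 with 0.51 ± 0.09 (SE, adjusted p = 0.013), Mcm6 with 0.43 ± 0.09 (SE, adjusted p = 0.017) and Pcna with 0.21 ± 0.04 (SE, adjusted p = 0.023). The median slope was 0.20, against 0.02 over all probe sets. By lymphocyte markers the arrays fell into 2 clusters, with casein 6 and soy 149 in the low one. These 2 arrays also had high muscle and low epithelial signal, and the parts of these contents in the result were not tested.

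Krt8, a keratin of luminal epithelium, had a shallow positive slope with nearly each member, and 1 slope passed the test. Its log2 signal on casein was 9.49, 10.28, 8.92, 7.32 and 11.33. On the soy side it was 9.92, 7.72, 9.69, 9.33 and 6.96 in the usual order. With diet as covariate, 26 of 28 slopes over the 10 arrays were positive, against 54.2% of all probe sets, and the exceptions were Plk1 and Hmmr. The median slope was 0.15 log2 units per unit of Krt8, against 0.01 over all probe sets, and 0.14 for the replication and 0.16 for the mitosis members. An unadjusted p under 0.05 was found for 16 members, each with a positive slope. Such a p together with a positive slope was found for 10.3% of all probe sets.

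After adjustment 1 member passed, Stmn1, with a slope of 0.26 ± 0.05 (SE, adjusted p = 0.043 in limma), as did 0.504% of all probe sets. Racgap1 had a slope of 0.23 ± 0.07 (SE, adjusted p = 0.18), Mcm7 of 0.21 ± 0.06 (SE, adjusted p = 0.17), Cdk1 of 0.16 ± 0.05 (SE, adjusted p = 0.19) and Mki67 of 0.23 ± 0.12 (SE, adjusted p = 0.36). The call of Stmn1 was lost when any 1 array other than soy 147 or soy 159 was left out, and without soy 159 Ube2c and Racgap1 passed as well. Among all probe sets 0.935% passed without soy 159, 0.179% without casein 6 and 0.2% without casein 7. The share was 0.063% without casein 6 and soy 159, 0.147% without casein 6 and soy 149 and 0.294% with Cd37 added. Shares of all probe sets by unadjusted p are not given here for these fits. Without casein 6 the unadjusted count of 16 was 6, and without casein 7 it was 7, while without soy 159 it was 24 (median slope 0.19). Without casein 6 and soy 159, the 2 arrays farthest from the median Krt8 signal, it was 19, with a median slope of 0.25. Without both casein 6 and soy 149 it was 2, with 25 of 28 slopes positive and a median of 0.09, and with Cd37 added it was 7, with a median of 0.10. In casein 6 and soy 149, Cd37 and epithelial signal were low and muscle signal was high, and their parts were not tested separately.

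Soy 159 had the lowest Krt8 signal of all arrays, while its epithelial mean of 6.99 was slightly above the 6.89 of casein 6. Epcam, an epithelial adhesion protein, was at 4.53 in soy 159 and 7.67 in casein 6, and the keratin Krt18 at 7.39 and 4.49. Soy 159 had a lymphocyte mean of 9.79 and a muscle mean of 6.53. Of the 28 members 13 lay below their mean over the arrays there, with 27 in casein 6 and 25 in soy 149. In casein 6, 24 of 28 members were lower than in soy 159, as were 60.7% of all probe sets. These 2 arrays differed in lymphocyte (6.72 and 9.79) and muscle signal (13.71 and 6.53), no test was made between single arrays, and the part of any of these contents was not tested.

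**Figure D4:**
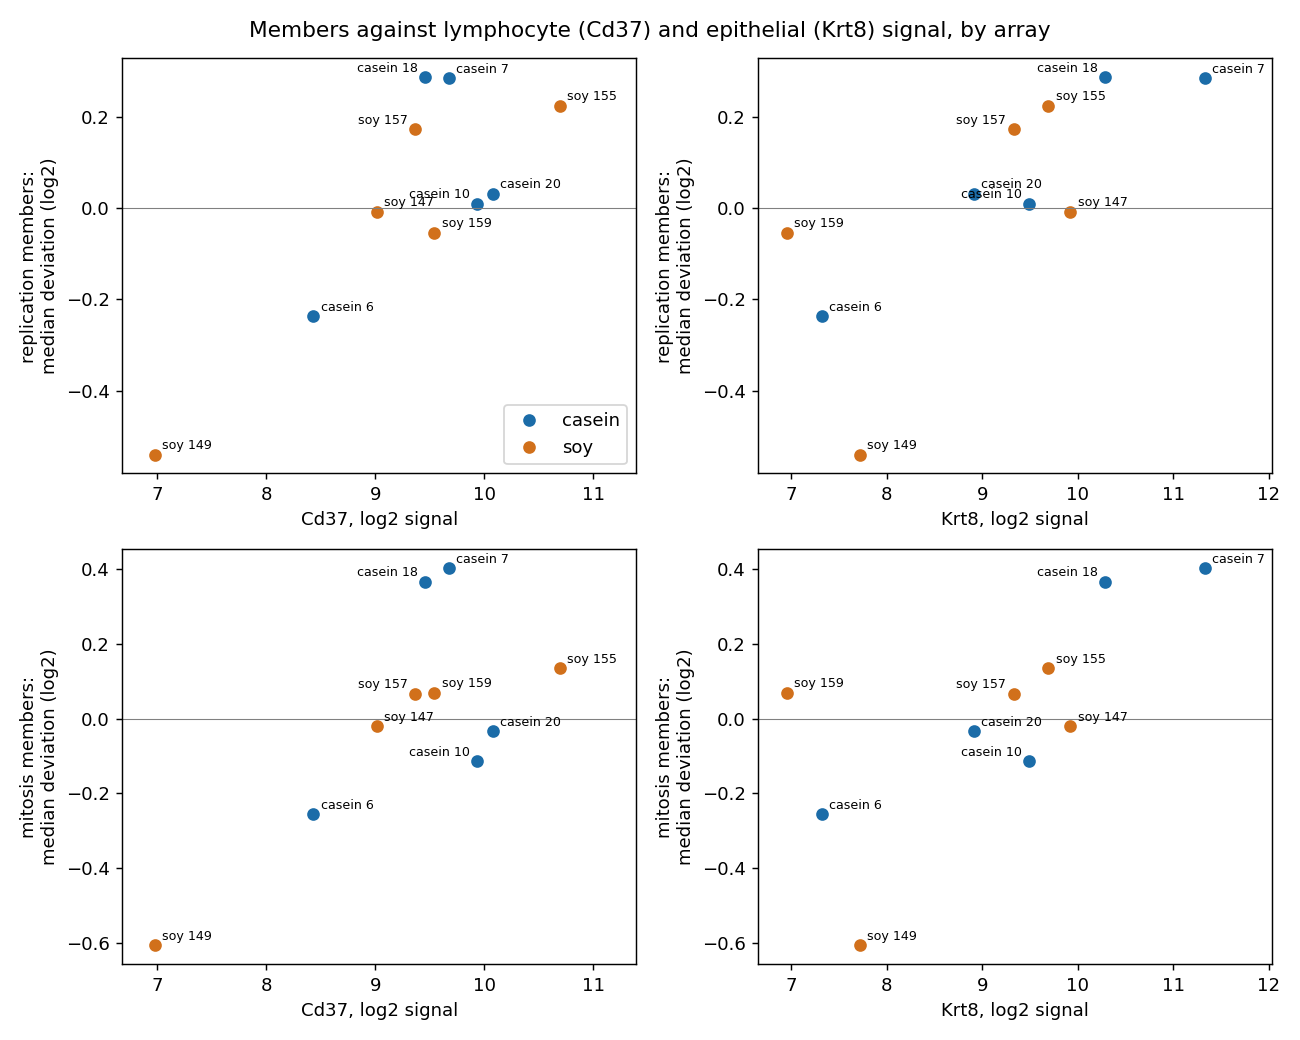
Median deviation of the replication members (top) and mitosis members (bottom) in each array against the log2 signal of Cd37 (left) and Krt8 (right), casein in blue and soy in orange. Soy 149 is lowest in each panel, and soy 159 has the lowest Krt8 signal and medians of -0.05 and 0.07.

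**Figure D5:**
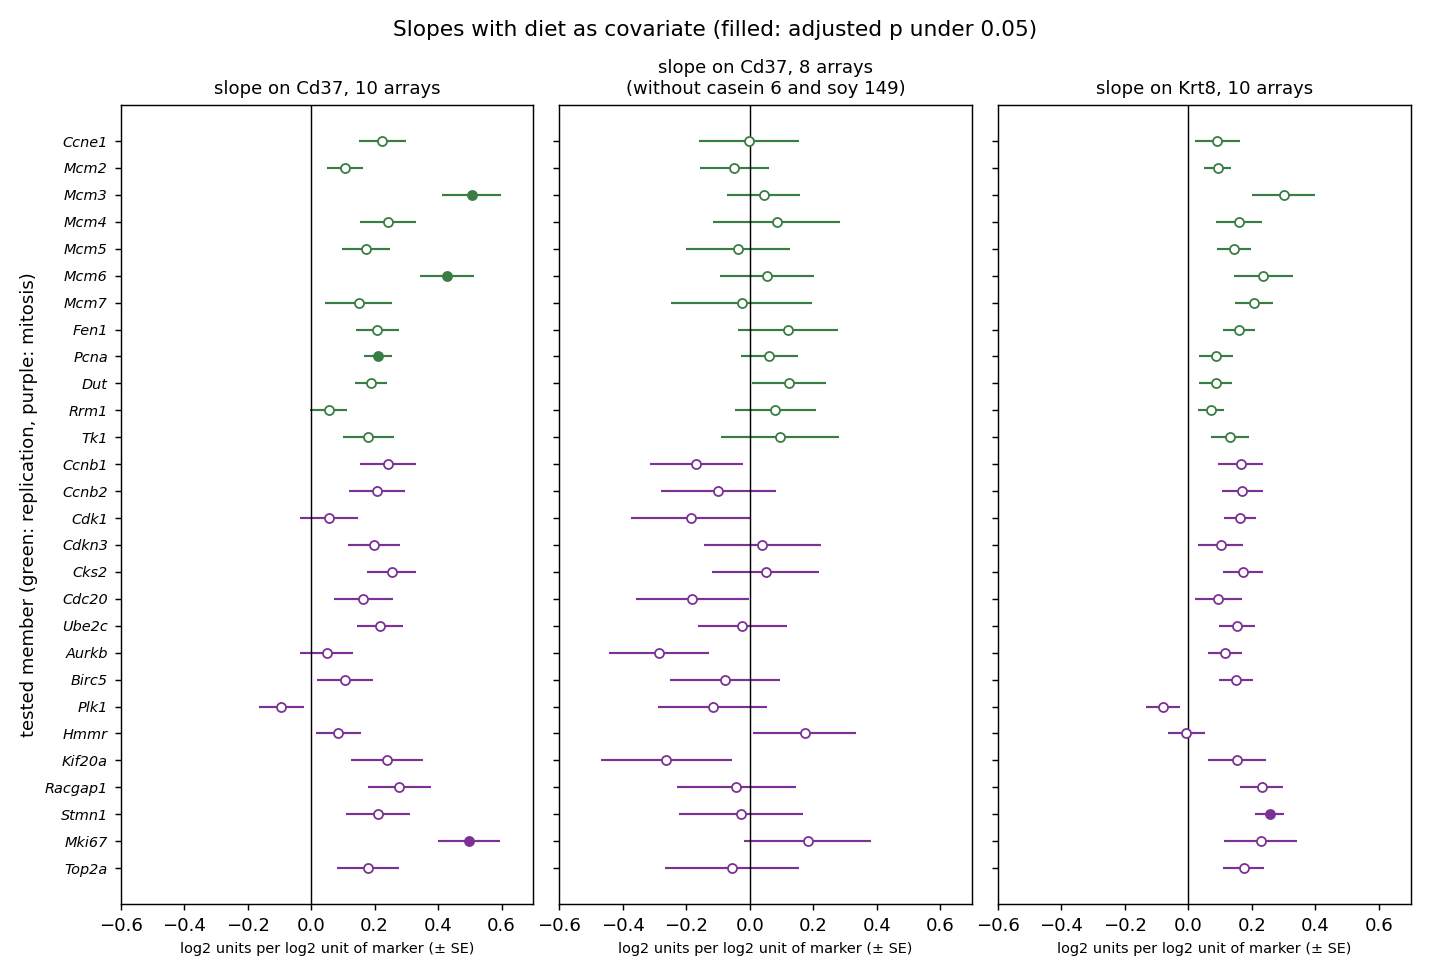
Slope of each tested member on Cd37 over 10 arrays, on Cd37 over the 8 arrays without casein 6 and soy 149, and on Krt8 over 10 arrays, with diet as covariate, in log2 units per log2 unit of the marker, with the SE as bars. Filled points have an adjusted p under 0.05 in limma, which are 4, 0 and 1 of 28.

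Where a member had several probe sets of its own, these did not all behave alike. For 5 members with 13 probe sets, soy 149 was lowest in 9 of the 13, against 17.3% of all probe sets tested. The 13 include the brightest probe sets already counted above and dim ones that were not tested. The second Top2a probe set had a diet difference of -0.58 ± 0.28 (SE), against -0.25 at the brightest, and stood -1.35 from the other arrays in soy 149. The 2 of Ccnb1 had diet differences of -0.24 and -0.01, and the 2 of Tk1 of -0.13 and 0.14, so the sign for Tk1 depended on the probe set. Of 5 for Cdc20, 3 were too dim for the test, and estimates ran from -0.38 to 0.08. The 2 of Hmmr gave 0.14 and 0.13.

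Other cell cycle genes that are no members were counted in the same fits. Of 42 other replication genes, such as origin, polymerase and RFC subunits, 20 were tested, with 9 higher and 11 lower in soy, a median of -0.04 and 0 passing the adjusted threshold. Of 42 other mitosis genes, such as kinetochore and condensin subunits, 14 were tested, with 1 higher and 13 lower, a median of -0.21 and 0 passing. Soy 149 was the lowest array for 11 of the 20 and 10 of the 14, against 17.3% of all probe sets. On Krt8, 15 of 20 and 14 of 14 slopes were positive, against 54.2% of all probe sets, and 0 passed. On Cd37 over the 8 arrays, 15 of 20 and 9 of 14 slopes were positive, against 53.5%, and 0 passed.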

How the data were processed

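Total RNA of each sample was labelled as biotin cRNA and hybridised to a 1-colour array, per the labels' protocols. The deposited intensity of each probe set is the MAS5 signal, per the submitters' processing notes, and the authors' software version is not given in the sources used here. Controls (57) were left out, a floor of 1 was set before log2 transformation. Of 15866 probe sets, 12783 had 1 gene symbol, 312 several and 2771 none. Probe sets with a mean log2 signal at or above the 40th percentile (7.47) were tested. Symbols of the 32 measured members matched the GRCr8 gene table by gene ID, with 0 changed. Diets were compared with limma 3.58.1 in R 4.3.3 (two-sided test from lmFit and eBayes, trend on mean intensity), and p-values were adjusted by Benjamini-Hochberg over all tested probe sets, at a threshold of 0.05. Slopes on Cd37 or Krt8 came from the same model with diet as covariate, without the marker's own probe set. The steps were tested on simulated data. The genes given array by array are, by rule, 9 fixed by role (Rrm2 has no value), the 4 with the smallest p by diet, the 3 with the largest SD and the 3 with the smallest p for each slope. Members, lists and rules were chosen with earlier results of these data known. Litter, hybridisation batch and scan date were not given in the labels, so none was tested. Precision is limited by the 5 arrays per diet. The alternatives tried were other scalings, filters, transforms, variance models, array weights, markers as covariates, means of probe sets and leaving out arrays.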

Additional observations from a re-analysis of the deposited data

Results flagged for a closer look

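Within a diet, an array was marked where its gap to the nearest of the other 4 was more than 0.71 of the whole range, which chance alone gives in about 1 in 20 groups. Of 40 groups of 5 arrays examined, 7 were marked, and the groups share arrays and are not independent. Mcm3 and Mcm6 were named for their large SD over these same arrays, so the rate of 1 in 20 does not hold for them. Racgap1 was named for its slope on Krt8 over these arrays, so the rate need not hold for it either. In 6 of the 7 marked groups soy 149 lay below the other soy arrays. It was at 7.80 for Ccnb1 (others 8.74 to 8.92), 10.52 for Pcna (others 11.08 to 11.27), 7.74 for Mcm3 (others 9.08 to 9.31), 7.75 for Mcm6 (others 9.02 to 9.36) and 8.16 for Racgap1 (others 8.83 to 9.09). The median deviation of the mitosis members in soy 149 was -0.61 (others -0.02 to 0.14). In casein 6, Mcm3 was at 8.09 (others 9.20 to 9.49).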

How the results depend on the processing

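The counts of 0 probe sets and 0 members called by diet held under each setting run with adjusted p in limma. With unadjusted p they were 433 and 1. The replication and mitosis medians stayed negative in each setting, at -0.05 and -0.07 with Cd37 as covariate, -0.04 for each with Krt8, -0.02 for each with both and -0.11 and -0.12 with the list means. Without 1 array they ran from -0.21 to -0.01 and from -0.25 to -0.03, nearest 0 without soy 149. For 15 named members, over settings other than leaving out 1 array, 211 of 221 differences kept their sign. Filters, the intensity trend and the robust variance model cannot change a difference, so part of this agreement was fixed in advance. The mean of probe sets can change it only for members with several. With Krt8 as covariate the diet difference turned to 0.10 for Mcm3, 0.0060 for Kif20a, 0.049 for Stmn1 and 0.076 for Mcm7, and with Cd37 to 0.080 for Mcm3. With both it was 0.17 for Mcm3, 0.034 for Kif20a, 0.061 for Stmn1, 0.081 for Mcm7 and 0.026 for Racgap1. The cause was not tested. Without 1 array Mcm3 ran from -0.36 to 0.18, Kif20a from -0.23 to 0.084 and Mcm7 from -0.23 to 0.021. The count of members called on Cd37 was 0 in each setting with 8 or fewer arrays and 4 with all 10. The count on Krt8 was 0 without casein 6 and soy 159 (farthest from its median), with the epithelial mean, with Cd37 added, with median centring, at the 60th percentile filter and, in a setting chosen after seeing the data, without casein 6 and soy 149. It ran from 0 to 3 without 1 array. No paired analysis was possible because the diets share no replicate numbers. Whether a signal exceeds background was not known here, which limits the dim members.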
